A study of Macaca fascicularis with 8 samples.

Results

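The chromatin around JCHAIN was examined peak by peak in 8 single-cell ATAC-seq (scATAC-seq) libraries from cynomolgus monkey organs. The window was chr5:63526764-63676765 (150002 bp, positions counted from 1), the stretch around JCHAIN that the study displayed. It held 77 of the 773526 peaks in the 8 deposited lists, and joining peaks of different libraries that overlapped by at least 1 bp gave 27 sites, numbered 1 to 27 along the chromosome. Of these sites, 2 had a peak in all 8 libraries and 25 had a peak in fewer. Joined in the same way over the whole genome, 19964 of 295418 regions had a peak in all 8 libraries. The organs came from 2 healthy monkeys, both 4 years old and of normal condition, and the labels name no treatment or engineered allele. The female gave colon, heart, lung, uterus and 1 liver library, and the male gave kidney, spleen and the other liver library, which means that effects of organ, animal and library cannot be told apart. With 1 library per organ, and 2 livers that were kept apart, no test between organs was made.

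JCHAIN encodes the joining chain, a small polypeptide that links the heavy chains of IgM and IgA into polymers. It lets these polymers bind the polymeric immunoglobulin receptor, which carries them across epithelia into mucus and bile. The gene is known for its use in plasma cells and activated B cells, which are abundant in the wall of the gut and in spleen. In the RefSeq annotation of assembly T2T-MFA8v1.1, the protein-coding genes next to JCHAIN are UTP3, a nucleolar protein of ribosome assembly, on one side and ENAM, which encodes the tooth enamel protein enamelin, on the other. No source used here names the genome build of the peaks. The sites were therefore not assigned to JCHAIN or to a neighbour, nor to promoters, exons or introns, and no sequence was read.

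In scATAC-seq, the Tn5 transposase cuts open DNA inside nuclei, and the cut ends that fall in a peak are counted per barcode. Barcodes with at least 1000 counts were taken as cells, which left 78917 cells, with 20019 in spleen and the fewest, 728, in the female liver. The median cell held 7446 counts in colon and 2040.5 in the female liver, and the totals of these libraries, 110748462 and 1978404 counts, were the extremes of the 8. The female liver stands apart, since 728 of its 2110 barcodes passed while its list of 165942 peaks was the longest. Of 75273 different barcodes, 3554 (4.72%) occurred in more than 1 library, at most 3.15% of any library shared with another. Values are given as CPM, that is, scaled to 1000000 counts over the whole peak list of a library, with 95% exact Poisson intervals on fragments (counts divided by 2, since both ends of a fragment are usually counted), and these intervals cover counting error only. A library without a peak at a site has no count for it there, so such a site was not measured, and its level is not 0.

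The libraries differed in how many peaks were called in the window, and also in their whole peak lists. These held 37159 peaks in uterus, 68713 in heart, 83244 in lung, 91034 in spleen, 107971 in kidney, 108470 in colon and 110993 in the male liver, and the median peak measured 14.0 CPM in uterus against 3.11 in colon. The part of list length in the numbers of the window was not tested. In the window, colon had 18 peaks, kidney and the female liver 13 each, spleen 12, the male liver 8, lung 7, heart 4 and uterus 2. Of the 27 sites, 12 were called in a single library, 5 in 2, 3 in 3, 3 in 5, 1 in 6, 1 in 7 and 2 in all 8. Over the whole genome, the same joining gave 295418 regions. Of these, 19964 had a peak in all 8 libraries and 5754 in all but uterus. How the window compares with these numbers was not tested. Colon alone had 6 of the single-library sites (6, 17, 19, 21, 23 and 25), kidney had 3 (7, 14 and 15), the female liver 2 (2 and 3) and lung 1 (site 13). The share of regions over the genome called in a single library was not computed, so these numbers cannot be set against it. Of the 13 peaks of the female liver, 3 held no count in its cells, at sites 2, 9 and 26, which leaves levels of up to 3.73 CPM inside the exact interval. Over its whole peak list, 27.4% of the peaks held no count in its cells.

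**Figure D1:**
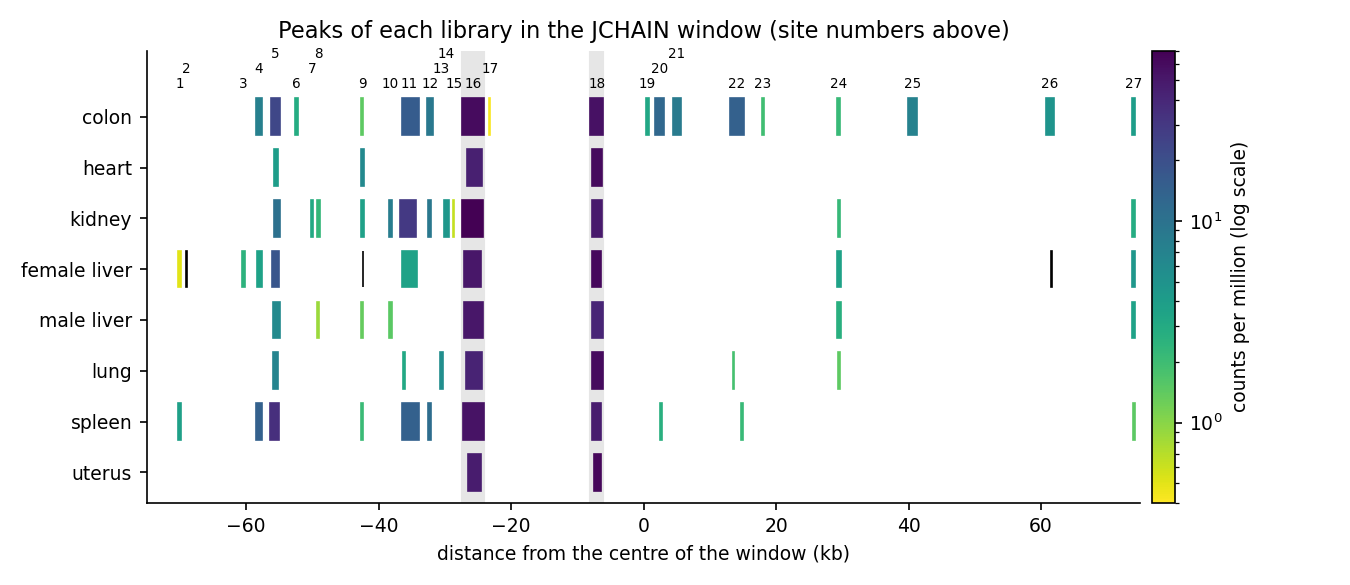
Peaks of the 8 libraries (rows) in the JCHAIN window, drawn to scale against the distance in kb from the centre of the window and coloured by CPM on a log scale, with the site numbers above. Grey bands mark sites 16 and 18, the only ones with a block in all 8 rows, open black outlines mark peaks without a count, and the right side of the window is filled mainly in colon.

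Site 16 (chr5:63574358-63577617) was open in every organ. Scaled to all peaks, it measured 59.8 CPM in colon, 44.3 in heart, 68.7 in kidney, 51.6 in both the female and the male liver, 42.6 in lung, 53.9 in spleen and 46.8 in uterus. On this scale kidney was highest (interval 65.1 to 72.4), colon was next (57.7 to 61.8), and neither interval overlapped that of the library next below it. The wide interval of the female liver (38.4 to 67.8) overlapped those of kidney and colon. From spleen down to lung, each library overlapped the next one in the order. The order depended on the total: regions with a peak in every library held from 52.5% of the counts in the male liver to 84.5% in uterus, and scaled to these regions alone kidney stayed first (124 CPM), colon (98.9) was level with the male liver (98.3), the female liver (88.9) came before spleen (81.8), and heart (64.3), lung (61.9) and uterus (55.4) came last. The called peak was widest in the 3 libraries with the highest levels on the scale of all peaks, though not on that of shared regions, at 3260 bp in colon, 3113 bp in kidney and 3063 bp in spleen, against 2444 bp in lung, 2284 bp in heart and 1935 bp in uterus. The part of peak width in these levels was not tested.

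Site 18 (chr5:63593717-63595654), the other site found in all libraries, ranked the organs differently. Scaled to all peaks, it measured 55.4 CPM in colon, 61.0 in heart, 49.0 in kidney, 62.2 in the female liver, 41.2 in the male liver, 60.6 in lung, 47.2 in spleen and 63.7 in uterus. On this scale uterus, the female liver, heart and lung overlapped in their intervals, colon lay below lung, kidney and spleen overlapped below colon, and the male liver was lowest (39.3 to 43.1). The wide interval of the female liver (47.6 to 79.8) also overlapped those of colon, kidney and spleen. Scaled to shared regions, the order was another, with the female liver at 107 CPM, colon at 91.7, heart at 88.5, lung and kidney both at 88.1, the male liver at 78.4, uterus at 75.4 and spleen last at 71.7, so that uterus moved from first to seventh. Per kb of called peak, the level of site 18 was above that of site 16 in all 8 libraries, by 1.36 times in the male liver to 2.39 times in the female liver.

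The balance between both sites needs no scaling to the library, but it depends on the widths of the called peaks, which differ between libraries. The counts at site 18 were 0.713 times those at site 16 in kidney (95% exact binomial interval 0.657 to 0.774), 0.797 times in the male liver, 0.876 times in spleen (0.815 to 0.942) and 0.927 times in colon (0.883 to 0.974). The ratio was above 1 in uterus (1.36), heart (1.38) and lung (1.42, 1.35 to 1.51), and its interval included 1 in the female liver (1.21, 0.841 to 1.84). Uterus, heart and lung also had the shortest called peaks at site 16 (1935, 2284 and 2444 bp). Per kb of called peak the ratio was above 1 in every library, with 1.36 in the male liver, 1.56 in colon and 1.57 in kidney as the lowest.

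Other regions with a peak in every library gave the background for both sites. Among these regions, 42.2% had a highest library at least 4 times its lowest, with each library scaled to its counts in these regions. On that scale site 16 reached 2.23 (kidney over uterus) and site 18 1.5 (the female liver over spleen), and 33.7% and 6.15% of the regions varied less. The regions were not matched for level. Depending on the library, from 67.8% to 92.7% of them lay below site 16, and from 75.9% to 88.1% below site 18. The part of level in these ranks was not tested. Spleen, an organ rich in B cells, was at least 2-fold above the median of the other libraries in 5.3% of these regions, against 0.920-fold at site 16 and 0.813-fold at site 18. Lung passed 2-fold in 8.95% of the regions and measured 0.696-fold and 1.0-fold at these sites, and colon passed it in 6.2% and measured 1.21-fold and 1.04-fold. With all peaks as the total, spleen at site 16 came to 1.05-fold and colon at site 18 to 0.913-fold, so neither direction held under both scalings.

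The share of cells with a count at these sites was lowest in the 2 libraries with the shallowest cells. At site 16 it was 7.51% in spleen, 6.73% in the female liver and up to 20.5% in colon, and at site 18 from 6.56% in spleen to 24.0% in heart. When each cell was thinned to 1000 counts, which left out no cell, the shares came to 2.15% in lung to 3.46% in kidney at site 16 and to 2.08% in the male liver to 3.31% in the female liver at site 18.

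**Figure D2:**
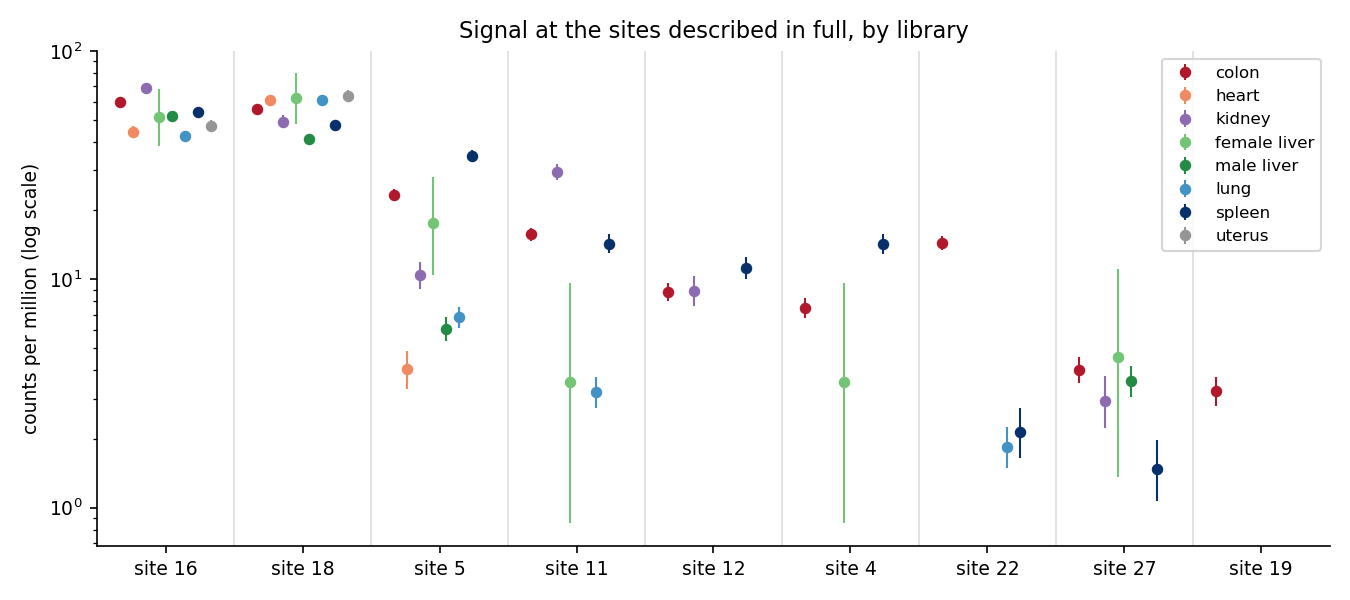
CPM (log axis) at the 9 sites described in full, 1 point per library with a peak there, with 95% exact Poisson intervals as bars. Points at sites 16 and 18 lie between 41.2 and 68.7 in all 8 libraries, while site 5 spreads from 4.03 in heart to 34.7 in spleen.

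Of the sites in fewer libraries, site 5 (chr5:63545437-63546880) carried the most counts and was called everywhere except uterus. Its level was 34.7 CPM in spleen, 23.4 in colon, 17.7 in the female liver, 10.4 in kidney, 6.84 in lung, 6.06 in the male liver and 4.03 in heart. Spleen (32.6 to 36.9) lay above colon (22.1 to 24.7) without overlap, colon and the female liver overlapped, as did the female liver and kidney, and heart (3.30 to 4.87) lay below all others. Scaled to shared regions, only lung (9.94) and the male liver (11.5) changed places in this order. The heart peak was also the shortest, at 495 bp against 1091 bp in the male liver, 1384 bp in colon and 1343 bp in spleen. Per kb of called peak, spleen (25.8) and colon (16.9) were still first, and the male liver (5.55) was last, below heart (8.13) and lung (8.56). A count at site 5 was found in 9.27% of colon cells and 4.87% of spleen cells, and after thinning in 0.995% and 1.68%, which puts spleen first as the CPM do. Spleen was 4.02-fold above the median of the other 6 libraries at site 5 and colon 2.71-fold. Of the 5754 regions with a peak in all libraries but uterus, 13.7% were at least 2-fold higher in spleen and 13.9% in colon, and 96.5% and 92.4% of these regions had a smaller fold in these organs than site 5.

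Sites 4, 11 and 12 were called in both colon and spleen, site 4 also in the female liver, site 11 also in kidney, lung and the female liver, and site 12 also in kidney. Site 4 (chr5:63543200-63544162), next to site 5, measured 14.3 CPM in spleen and 7.49 in colon, with no overlap, and 3.54 (0.854 to 9.62) in the female liver. Site 11 (chr5:63565024-63567859) was highest in kidney, at 29.5 CPM, lower in colon (15.8) and spleen (14.3), which overlapped, and lowest in the female liver (3.54) and lung (3.19). The lung peak at site 11 covered 380 bp against 2418 bp in kidney, 2640 bp in colon and 1293 bp in 2 peaks in spleen, and per kb the levels were 8.40 in lung, 12.2 in kidney, 5.97 in colon and 11.1 in spleen. At site 12 (chr5:63569133-63569909), spleen (11.2 CPM), kidney (8.90) and colon (8.83) overlapped from each to the next.

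The stretch past site 18, around the centre of the window, was called mainly in colon. Site 19 (chr5:63602086-63602639), 322 bp from the centre, was a colon peak alone, with 3.23 CPM and a count in 1.72% of cells (0.143% after thinning). Beside it, site 20 (chr5:63603488-63604887) measured 12.4 CPM in colon and 2.68 in spleen, where the peak spanned 395 bp against 1400 bp. Site 21 (chr5:63606135-63607364) was again called in colon alone, at 8.36 CPM. Site 22 (chr5:63614812-63616888) measured 14.5 CPM in colon, 2.15 in spleen and 1.84 in lung, with peaks of 2077 bp, 320 bp and 253 bp, so that the levels per kb were 6.96, 6.71 and 7.27. The spleen and lung peaks at site 22 did not overlap each other and were joined through the longer colon peak. Sites 23 (1.94 CPM) and 25 (7.07 CPM) completed the colon peaks of this stretch that no other library had.

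The levels at the remaining sites were mostly under 5 CPM. Site 9 had a peak in 6 libraries, with 6.16 CPM in heart, 3.68 in kidney, 2.10 in spleen, 1.45 in colon and 1.37 in the male liver. Site 24 lay between 1.45 CPM in lung and 3.54 in the female liver over 5 libraries. Site 27 (chr5:63675507-63675999), at the edge of the window, measured 4.55 CPM in the female and 3.58 in the male liver, 4.01 in colon, 2.93 in kidney and 1.48 in spleen. Site 10 was called in kidney (8.07 CPM) and the male liver (1.51), and site 13 in lung alone (5.51 CPM). Sites 7, 14 and 15 of kidney measured 3.07, 4.56 and 0.634 CPM.

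Split by kind of site and scaled to all peaks, sites 16 and 18 together held 92.8 CPM in the male liver to 118 in kidney. On the total of shared regions, kidney is still highest but uterus is lowest. The sums over the other sites are not made of the same sites in each library. A site without a called peak adds nothing to them, so their spread cannot be set against that of sites 16 and 18. Scaled to all peaks, the window as a whole held 234 CPM in colon, 194 in kidney, 188 in spleen, 150 in the female liver, 122 in lung, 116 in heart, 111 in uterus and 109 in the male liver. This order also depends on the total, since on that of shared regions the male liver lies above lung, heart and uterus. Sites 16 and 18 made up 49.2% of the window counts in colon (95% exact binomial interval 48.4 to 50.1), 53.9% in spleen (52.5 to 55.2), 60.7% in kidney (59.1 to 62.2), 76.0% in the female liver (67.9 to 82.3), 84.6% in lung, 85.2% in the male liver, 91.2% in heart and 100% in uterus. Over the whole genome, regions with a peak in every library held 60.4% of the counts in colon, 65.9% in spleen and 55.6% in kidney. That share was 58.0% in the female liver, 68.8% in lung, 52.5% in the male liver, 68.9% in heart and 84.5% in uterus. The sites in fewer libraries added 119 CPM in colon, 86.6 in spleen, 76.3 in kidney, 35.9 in the female liver, 18.8 in lung, 16.1 in the male liver and 10.2 in heart. The length called as peaks in the window was 21054 bp in colon, 12004 bp in kidney, 10449 bp in spleen and 8740 bp in the female liver. It was 7424 bp in the male liver, 6307 bp in lung, 4746 bp in heart and 3079 bp in uterus. The sums over the sites in fewer libraries are scaled to all peaks, and their order depends on this total. On the total of shared regions, kidney lies above spleen and the male liver above lung. The part of called length in these sums was not tested.

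**Figure D3:**
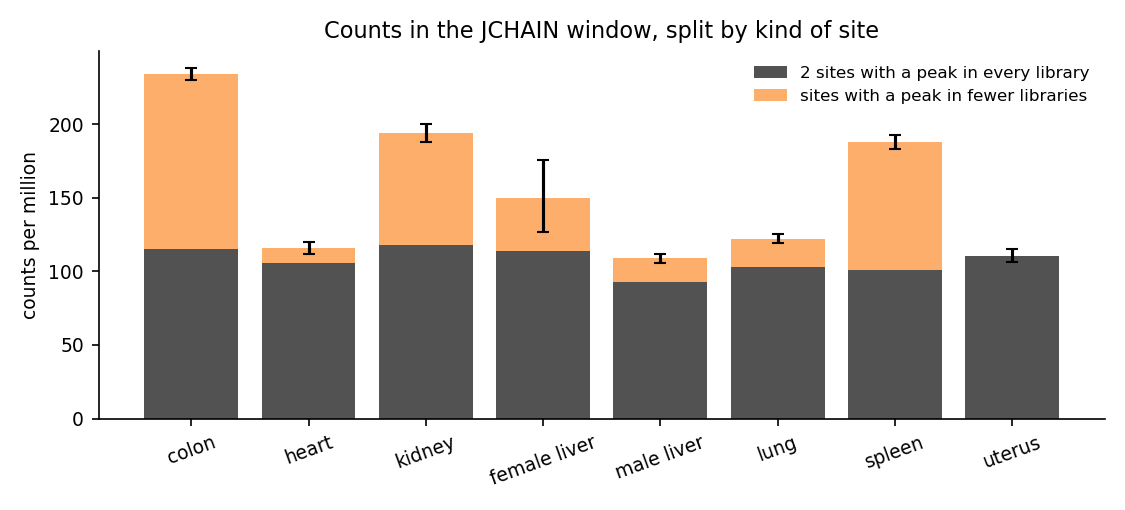
CPM in the JCHAIN window per library, scaled to all peaks and split into sites 16 and 18 (dark) and all other sites (orange), with 95% exact Poisson intervals of the whole as bars. The dark parts reach from 92.8 to 118 in the 8 libraries, and the orange parts are tallest in colon (119), spleen (86.6) and kidney (76.3).

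The 2 livers shared 6 sites, and 6 more were called in the female liver and 2 in the male liver alone of the pair. Over all regions of the genome with a peak in either liver, 37.3% had one in both, from lists of 165942 peaks in the female and 110993 in the male liver. Of the female liver's sites, site 9 (shared) and sites 2 and 26 (not shared) held no count in its cells, as did 27.4% of all its peaks. Site 16 was level between them, with the female liver at 0.999 times the male liver (0.742 to 1.32). Site 18 was 1.51 times higher in the female liver (1.16 to 1.96) and site 5 was 2.92 times higher (1.76 to 4.85), while sites 24 and 27 had intervals that included 1. The female values rest on 123 counts at site 18 and 35 at site 5, and depth, animal and library cannot be told apart here.

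Cells of each library were then grouped into clusters on all peaks outside the window, to ask whether the sites vary within an organ. The clusters are numbered by size and were not named, because marker genes could not be placed on the peaks. They come from the same cells as the values, so the values are a description. Colon formed 18 clusters, lung 16, uterus 12, heart 9, and kidney, spleen and the male liver 7 each with at least 1% of the cells, and the female liver formed 5.

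In colon, most of the sites in fewer libraries were concentrated in a few clusters. Clusters 1, 4, 6 and 12, picked after their values were seen, comprised 32.6% of the cells and 45% of all counts. They held 90.7% of the counts at site 20, 91.8% at site 21, 87.4% at site 22, 88.4% at site 23, 88.0% at site 19, 91.3% at site 6, 88.7% at site 12, 81.3% at site 11 and 71.4% at site 5. Their shares were between 66.8% (site 4) and 79.1% (site 26) at sites 4, 24, 25 and 26. Lower shares were found at site 27 (57.4%), site 9 (11.8%) and site 17, where they held 4 of its counts (8.51%). At site 16 they held 58.3%, and at site 18 they held 43.2%, which is close to their share of all counts. Their shares at single colon peaks outside the window were not computed, so the shares above cannot be set against them.

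These clusters did not use the same sites. Cluster 12, with 501 cells, had 49.5 CPM at site 20 (41.5 to 58.6) and 47.7 at site 22 (39.8 to 56.6), the highest of all colon clusters, but only 8.84 at site 5 (5.66 to 13.2). It also held 64.7% of the counts at site 23, at 25.6 CPM (19.9 to 32.4), where the next cluster had 2.14 (0.0541 to 11.9). Cluster 6, with 857 cells, showed the opposite order, with 51.8 CPM at site 5 (45.6 to 58.7), the highest in colon, 20.0 at site 4, 12.2 at site 22, 5.40 at site 20 and 0.208 at site 23. Cluster 4 lay between them at these sites, with 42.6 CPM at site 5, 19.9 at site 22 and 16.8 at site 20, and at site 11 its 35.9 CPM (31.0 to 41.4) overlapped with cluster 6 (32.2, 27.3 to 37.7) and lay above cluster 12 (11.2) without overlap. Cluster 1, the largest with 1759 cells, was high at all 3 of these sites, with 35.3 CPM at site 5, 30.7 at site 20 and 33.6 at site 22, and it held 71.7% of the counts at site 21 (27.3 CPM, next cluster 9.57) and 67.0% at site 26. Its cells were also the deepest in colon, with a median of 12745 counts against 9501 in cluster 12, and the part of depth and of doublets in its mixed profile was not tested. Cluster 18, with 162 cells, was highest at site 11 (53.2 CPM, 36.9 to 74.4).

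Site 5 also differed between clusters in spleen, lung and the male liver. In spleen it ranged from 21.8 CPM in cluster 3 to 54.6 (49.6 to 59.9) in cluster 1, which held 5534 cells and was also highest at sites 4 (23.2), 12 (18.3) and 16 (72.9). Site 22, in contrast, reached no more than 3.55 CPM in any spleen cluster, and site 20 no more than 3.58, where the called peaks at both were shorter than in colon. In lung, cluster 14 with 223 cells was highest at site 5 (27.8 CPM, 17.5 to 41.9) and at site 16 (67.3), while site 11 was highest in clusters 9 (17.0) and 4 (16.1) against a median of 0.475 over the lung clusters. In the male liver, clusters 6 (22.7) and 5 (19.2) led at site 5, against 4.20 in cluster 1. In the female liver, cluster 5 measured 62.4 CPM at site 5 with an interval of 22.9 to 136, from 65 cells. The heart cluster with the highest level had 16.8 CPM at site 5 (5.82 to 37.7, median 4.37). In kidney site 5 ran from 5.42 CPM (1.76 to 12.7) in cluster 7 to 13.4 (9.18 to 18.9) in cluster 4, with overlapping intervals, but with coarser clusters (resolution 0.4) those of clusters 2 (4.30, 1.86 to 8.47) and 1 (11.5, 9.87 to 13.4) did not overlap.

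Site 9 had another distribution. It was concentrated in colon clusters 5, 15 and 16 (15.2, 13.4 and 14.9 CPM, against a median of 0.724), in heart clusters 8, 3 and 2 (22.2, 17.7 and 11.1, median 1.13), in male liver clusters 7 and 4 (24.3 and 14.9, median 0.892) and in spleen cluster 6 (7.16, median 1.44). In kidney it was spread more evenly, with 4.23 CPM in the highest cluster and a median of 3.80. At site 5, colon clusters 5 and 15 (7.47 and 6.38 CPM) lay under the median cluster of 11.6, and cluster 16 was near it (11.7, 4.07 to 26.4). Site 13 was highest in lung clusters 3 (16.4) and 1 (8.63).

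**Figure D4:**
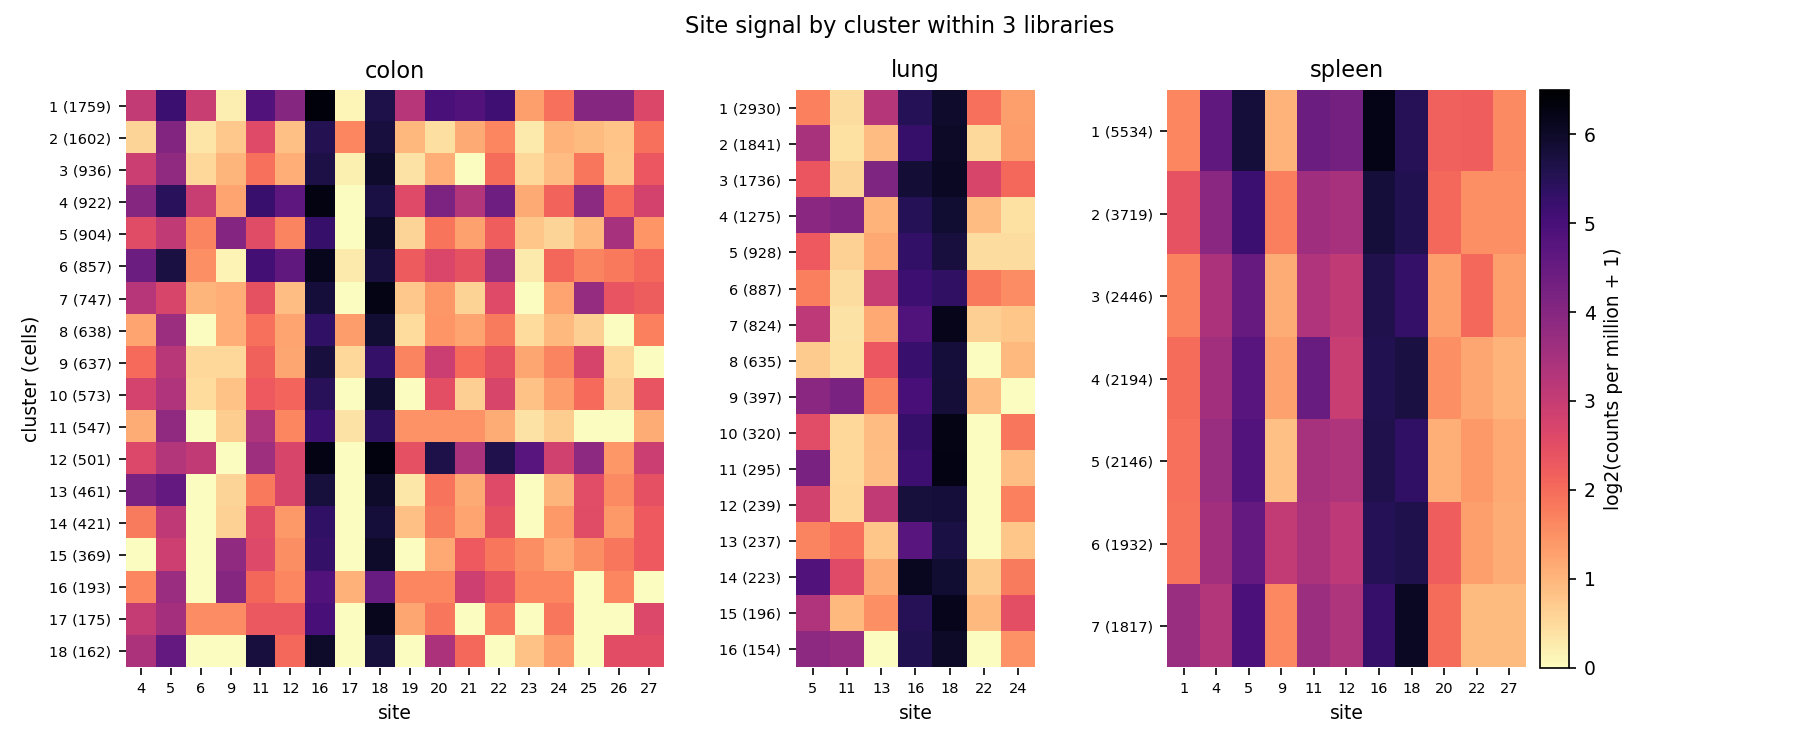
Site signal as log2(CPM + 1) in the clusters of colon, lung and spleen (rows, with the number of cells) at the sites each library had a peak for (columns). Columns 16 and 18 are dark in all rows, columns 20, 22 and 23 darken in colon cluster 12, and column 5 is darkest in colon cluster 6 and spleen cluster 1.

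Sites 16 and 18 had counts in every cluster of every library, at no less than 25.8 and 20.8 CPM. The highest cluster at site 16 was 1.70 times the median cluster in colon, 1.77 times in lung, 1.53 times in spleen and 1.15 times in kidney. In colon this factor was 1.39 at site 18, and at the other sites it ran from 1.69 (site 27), 3.67 (site 4) and 3.92 (site 24) to 18.9 at site 20 and 44.4 at site 23, with no value for site 17, whose median was 0. The median cluster in colon held 56.4 CPM at site 18, but 2.62 at site 20 and 0.577 at site 23. The part of such low medians in the factor was not tested. In kidney the factor lay between 1.11 (site 9) and 4.23 (site 10). The ratio of site 18 to site 16 ran in colon from 0.598 (0.539 to 0.662) in cluster 1 to 2.21 (1.34 to 3.74) in cluster 17. In lung it ran from 0.881 to 2.53, in spleen from 0.609 in cluster 1 to 1.74 in cluster 7, and in uterus from 0.831 to 2.16. The range was narrower in kidney, from 0.555 (0.358 to 0.805) to 0.771 (0.691 to 0.864), and in heart, from 0.919 (0.437 to 1.82) to 1.65 (1.35 to 2.05), over clusters with at least 20 counts at both sites. Within a library the peaks are the same for all clusters, so their width does not enter this comparison.

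Co-detection asked whether 2 sites were found in the same cell more often than their shares predict. The number of cells expected was summed over 10 classes of depth, since deep cells hold more of every site, and the ratio of observed to expected cells was taken. For sites 16 and 18 this ratio was 1.03 in colon (738 cells against 717.7, 0.955 to 1.11), 0.935 in spleen (0.778 to 1.11), 1.08 in lung (0.990 to 1.17), 1.01 in the male liver, 0.983 in kidney, 1.07 in heart and 1.76 in the female liver (0.759 to 3.46, from 8 cells). Uterus alone had an interval above 1, at 1.17 (1.03 to 1.31).

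Among 408 pairs of sites over all libraries, 208 had at least 5 cells expected, and of these 58 had an interval above 1 and 1 an interval below 1. As background, all pairs of peaks anywhere in the genome that lay no farther apart than the window is long were taken in the same way. Colon gave 51 of the 58, out of 121 such pairs, while 26.5% of the background pairs of colon had an interval above 1. Spleen gave 4 of 25 (background 6.15%), lung 2 of 15 (26.5%) and uterus 1 of 1 (28.7%). Kidney (background 3.16%), heart (22.5%) and the male liver (5.52%) gave none of 27, 6 and 13. Pairs of the window share sites and cells, and how the window's shares compare with the background was not tested. The pair below 1 was that of sites 10 and 16 in kidney, at 0.476 (0.254 to 0.815). The share of background pairs with an interval below 1 was not computed, so this pair cannot be set against it. The highest ratio among these pairs in colon joined sites 22 and 23, at 2.78 (1.97 to 3.82), and cells with a count at site 22 had one at site 23 in 5.41% of cases, against 0.684% of the other cells. Sites 21 and 26 reached 2.50 (1.87 to 3.28) and sites 20 and 22 reached 2.12 (1.80 to 2.48, 158 cells against 74.6). Site 5 went with site 6 (1.74, 1.30 to 2.29), site 12 (1.64, 1.37 to 1.94), site 11 (1.60, 1.39 to 1.83), site 4 (1.38, 1.10 to 1.70) and site 16 (1.12, 1.02 to 1.24) in colon. With the sites past the centre its ratio was 1.56 (1.30 to 1.86) at site 21, 1.27 (1.06 to 1.49) at site 20 and 1.13 (0.955 to 1.33) at site 22. In spleen all 4 pairs above 1 involved site 5, with site 12 (1.80, 1.29 to 2.44), site 1 (1.77, 1.01 to 2.88), site 4 (1.45, 1.03 to 1.99) and site 16 (1.38, 1.16 to 1.63). The ratio of site 5 with site 18 was 1.0 (0.807 to 1.23) there, and in lung site 5 went with site 11 (1.77, 1.11 to 2.68).

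Sites 16 and 18 were also compared with the rest of the window taken as 1. Cells with a count at any of the other sites were found more often than expected among cells with site 16 in colon (1.16, 1.10 to 1.22) and spleen (1.22, 1.08 to 1.37), and in lung the ratio was 1.13 (1.0 to 1.28). With site 18 the ratios were 1.01 in colon (0.951 to 1.07), 0.963 in spleen (0.836 to 1.10) and 0.956 in lung (0.849 to 1.07). In the male liver it was 1.07 (0.911 to 1.24) at site 16 and 1.23 (1.05 to 1.43) at site 18, and in kidney 0.951 and 0.990, in heart 1.02 and 1.11 and in the female liver 1.25 and 1.32, all with intervals that included 1. The difference between both sites was not tested.

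With their values known, 7 of these pairs were picked, and for them and for sites 16 and 18 cells were also compared in 5 classes of depth within each cluster, and, to change 1 thing at a time, in 5 classes over the whole library. For sites 20 and 22 in colon the ratio was 2.27 over the library and 1.26 (1.07 to 1.48) within clusters, and for sites 22 and 23 it was 3.05 and 1.53 (1.09 to 2.11). Sites 21 and 26 went from 2.85 to 1.30 (0.973 to 1.71), sites 5 and 11 from 1.67 to 1.24 (1.07 to 1.42) and sites 5 and 22 from 1.2 to 1.01 (0.855 to 1.2). In lung, sites 5 and 11 went from 1.96 to 1.06 (0.662 to 1.60). Sites 5 and 12 in spleen, with the smallest relative change among the 7 picked pairs, went from 1.88 to 1.66 (1.19 to 2.25). For sites 16 and 18 the ratio within clusters was 1.05 in colon, 0.992 in spleen, 1.11 (1.02 to 1.2) in lung and 1.17 (1.03 to 1.32) in uterus. Its interval included 1 in all libraries but lung and uterus. With 5 classes over the whole library this ratio was also 1.11 in lung, and 1.18 in uterus.

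**Figure D5:**
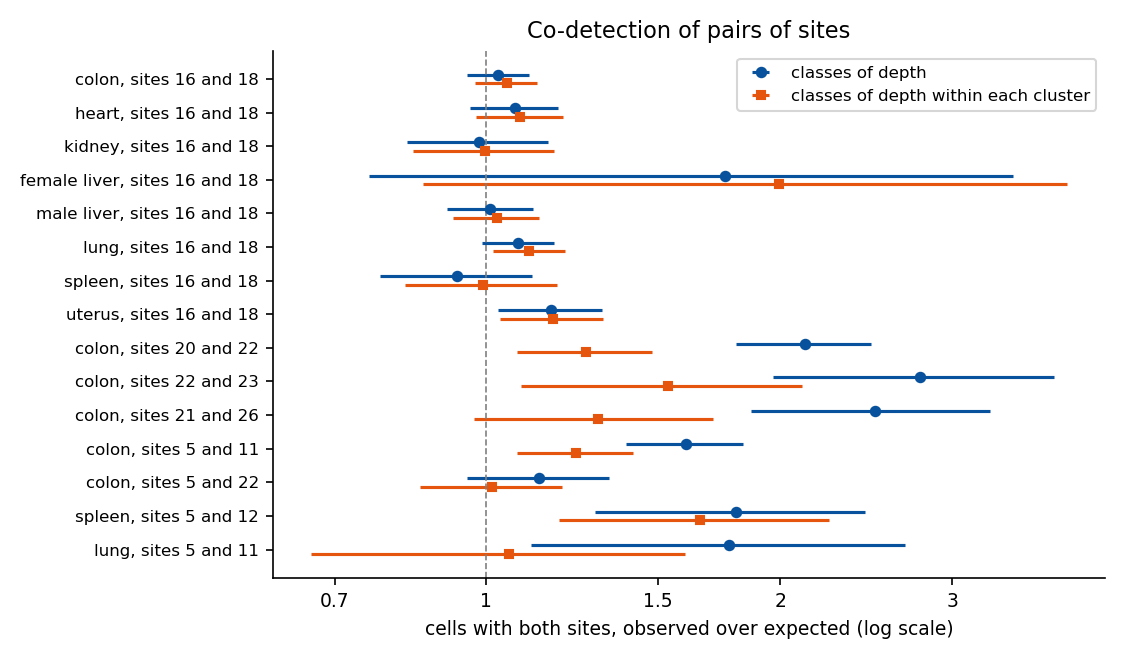
Observed over expected number of cells with counts at both sites of a pair (log axis), expected within 10 classes of depth over the library (blue circles) or 5 classes of depth within each cluster (orange squares), with 95% exact Poisson intervals. Sites 16 and 18 lie near 1 in the large libraries, and the colon pairs of sites 20 to 26 move from above 2 toward 1.26 to 1.53 within clusters.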

How the data were processed

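The authors processed each library with Cell Ranger ATAC 1.2.0 and deposited, for every library, its barcodes, its own peak list and a matrix of raw counts of Tn5 cut ends, not normalized. The genome build of these peaks is not stated in the sources used, which name macFas6 for the scRNA-seq reads only. Window, sites and gene lists were chosen with earlier results of these data known. Barcodes with at least 1000 counts were kept. For spleen, colon, lung and the male liver more barcodes were deposited than the cell number set in the study's methods, and for the female liver fewer; shares are of the barcodes kept. Doublets were not removed, except in an alternative without the 5% of barcodes with the highest totals. Printed in full were the sites called in all 8 libraries, the 6 others with the largest summed CPM and the site nearest the centre; further sites named were chosen after their values were seen. Peaks outside the window with a count in at least 1% of cells were set to presence or absence, given TF-IDF weights, reduced to 30 components (those correlated with depth above 0.75 dropped) and clustered with leidenalg 0.10.2 at resolution 0.8 on 20 nearest neighbours (scikit-learn 1.9.0, scipy 1.17.1, Python 3.11.15). The joining of peaks, co-detection by depth class, thinning, background pairs, clustering and the Poisson interval were tested on simulated data. The folds over the genome, the binomial intervals and co-detection within clusters were not. Alternatives were other barcode minimums, overlap rules, totals, depth classes, a count of at least 2 per cell, resolutions and each liver left out. Cell types were not assigned, and the genes most like JCHAIN were not sought, since peaks could not be placed on genes.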

Additional observations from a re-analysis of the deposited data

Results flagged for a closer look

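Barcodes under 1000 counts were used in no comparison of the report, only in the alternative with every barcode, and they too held counts in the JCHAIN window, above the limit of 3 counts. The window measured 193 CPM in 473 such barcodes of heart (59 counts, 95% exact Poisson interval 130 to 277), 105 CPM in 1382 of the female liver (68 counts, 72.6 to 146) and 112 CPM in 703 of uterus (42 counts, 69.1 to 171). The heart value lay above that of the heart cells (116, 111 to 120), the uterus interval included that of the uterus cells, and the female liver intervals overlapped.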

How the results depend on the processing

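The number of sites was 27 with an overlap of 50% of the shorter peak, 18 with peaks in at least 1% of cells, and 25 to 27 without either liver, and the sites called in all libraries were 2 in each case. The share of window counts in these 2 sites stayed inside its interval under each alternative run. The overlap rule gave the same 27 sites, so the share could not move with it. Nor could it move with every barcode outside heart and the female liver. Without depth classes, the co-detection ratio of sites 16 and 18 rose to 1.46 in colon, 1.64 in heart, 1.19 in kidney, 1.33 in the male liver, 1.44 in lung, 1.27 in spleen and 1.57 in uterus, with cells of all depths in 1 class. With all peaks as the total, the highest over the lowest library at site 16 was 1.61, spleen was at 1.05, lung at 0.825 and colon at 1.16 times the median of the others there, and at site 18 lung was at 1.09 and colon at 0.913, so that spleen at site 16 and colon at site 18 changed sides of 1. Without either liver, spleen at site 16 was 1.01 to 1.07, lung 0.687 to 0.725 and colon 1.35 to 1.35, at site 18 spleen was 0.811 to 0.814, lung 0.998 to 1.06 and colon 1.04 to 1.10, and the highest over the lowest library was 2.23 to 2.23 at site 16 and 1.28 to 1.5 at site 18. A minimum of 2000 counts left all 74 values recomputed within their intervals. Every barcode left all 59 within theirs, but only heart, the female liver and uterus had barcodes under 1000 counts. The values of the other libraries could therefore not move with every barcode. Leaving out the 5% of barcodes with the highest totals moved 3 of 78, site 11 in colon (14.7 CPM) and lung (2.68) and site 22 in colon (13.2). Asking for a count of at least 2 moved 13 of 43 shares of cells, by over 1.5 times at site 5 in heart (to 1.13%), site 19 in colon (1.06%) and sites 11 and 22 in lung (0.823% and 0.351%). Thinning moved 41 of 43 shares of cells, and a total of shared regions 40 of 43 CPM values, as both change the scale. That total also changed the order of libraries, at site 16 with spleen (81.8) below both livers and uterus (55.4) below lung, and at site 18 with uterus (75.4) seventh and spleen (71.7) last. At resolution 0.4 the highest spleen cluster at site 5 was 46.7 CPM. No paired analysis was possible because no result comes from a test and only the liver has 2 libraries. Depth limits the female liver most, where a peak without a count has an exact interval that reaches 3.73 CPM. With 5 classes of depth over the whole library, all 15 co-detection ratios recomputed stayed inside their intervals.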
